A study of Mus musculus with 6 samples.

Results

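The genes described here encode the RNA polymerase machinery of the mouse oocyte, that is, the subunits of RNA polymerases I, II and III and the basal factors of polymerases I and III. They were chosen by gene symbol alone, as all symbols beginning with Polr1, Polr2 or Polr3 and a letter together with Ubtf, Rrn3, Ttf1, Taf1a to Taf1d, Brf1, Brf2, Bdp1, Gtf3a and Gtf3c1 to Gtf3c6, which gave 45 of the 17577 genes listed. Each library began with 1 oocyte, whose polyadenylated RNA was copied from an oligo-dT primer and amplified after a modified Smart-seq2 protocol. The 6 libraries came from germinal vesicle oocytes, which are arrested before their first meiotic division, of female C57BL/6 J mice aged 12 weeks and primed with pregnant mare serum gonadotropin. There were 3 libraries labelled Bnc1tr/tr, from mice homozygous for a frameshift allele that truncates basonuclin 1, and 3 labelled WT, and the study compared littermates. The allele is carried in the germ line, so every cell of the animal has it, and a transcript can still be made from it. The study calls the replicates biological, but which animal gave which oocyte was not stated, so the p-values measure the spread between these libraries. Values are FPKM, the fragments of a gene divided by transcript length in kilobases and by M (mega) mapped fragments, a relative unit that does not show how much RNA an oocyte held.

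RNA polymerase I transcribes the large ribosomal RNA precursor in the nucleolus, RNA polymerase II transcribes protein-coding genes, and RNA polymerase III makes transfer RNAs, 5S ribosomal RNA and other small RNAs. The enzymes have separate catalytic subunits but share several small ones. Polymerase I needs the initiation factor RRN3, the upstream binding factor UBTF and the promoter selectivity complex SL1, while polymerase III is placed on its genes by TFIIIA, TFIIIB and TFIIIC. A growing oocyte builds up a large store of ribosomes, and transcription falls silent when it reaches full size. Basonuclin 1 is a zinc finger protein known to bind ribosomal RNA genes. The libraries hold polyadenylated RNA, so ribosomal and transfer RNAs themselves were not measured.

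Bnc1 itself was at 9.04, 6.51 and 5.83 FPKM in Bnc1tr/tr replicates 1 to 3 and at 13.2, 12.5 and 16.2 FPKM in the WT replicates, and it was called lower, by 0.89 on the log2 scale (adjusted p = 0.0090). Depth, estimated from the steps between low values, was 13.2 to 17.2 M fragments in Bnc1tr/tr and 14.9 to 21.5 M in WT, so 3 fragments on a transcript of 1 kilobase correspond to 0.139 to 0.227 FPKM. All 12 oocyte markers searched were listed, with summed levels of 15890 to 17161 FPKM in Bnc1tr/tr and 17631 to 19307 in WT. The 11 of 13 granulosa and cumulus markers that were listed summed to 40.2 to 58.6 FPKM in Bnc1tr/tr and 21.7 to 38.9 in WT, and 6 of them were below 1 FPKM in every library. Theca and luteal markers (5 of 6 listed) summed to 5.95 to 7.62 against 0.71 to 4.17 FPKM, immune markers (8 of 8) to 2.6 to 53.7 against 1.39 to 3.0, and endothelial and stromal markers (6 of 7) to 9.0 to 13.8 against 9.71 to 11.6. The oocyte sums were thus lower, and the granulosa and theca sums higher, in Bnc1tr/tr without overlap between the groups. No listed marker was at 0 in all libraries. Single markers went both ways, with a higher mean in Bnc1tr/tr for 5 of the 12 oocyte, 4 of the 11 granulosa and 3 of the 5 theca and luteal markers. All 8 immune markers and 5 of the 6 endothelial and stromal markers had a higher mean in Bnc1tr/tr. The part of these cells in the results that follow was not tested.

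To ask whether the machinery of the 3 polymerases differed between Bnc1tr/tr and WT oocytes, all genes that averaged 1 FPKM or more over the 6 libraries were compared with limma on log2(FPKM + 1). A call required an adjusted p (Benjamini-Hochberg) under 0.05 together with a log2 fold change beyond 0.5 in either direction. Of the 45 genes, 39 passed the filter on low values and 9 were called, 5 higher (Polr1c, Polr2h, Polr3g, Brf2 and Bdp1) and 4 lower (Rrn3, Polr2j, Polr3c and Polr3gl) in Bnc1tr/tr. Over all 10560 genes tested 31.8% were called, 24.1% higher and 7.68% lower. The share of polymerase genes called, 23.1%, was thus below that of all genes, and 30 were not called. The 6 genes that failed the filter were Polr1b, Polr2a, Polr3e, Taf1c, Gtf3c4 and Gtf3c5. The median log2 fold change was -0.04 over the 39 polymerase genes and 0.15 over all tested genes, so a change relative to all genes lies 0.15 below each log2 value given here. The groups did not overlap for 16 of the 39, 8 higher and 8 lower, against 46.8% of all tested genes (32.7% higher and 14.1% lower). The split of calls depended on the scaling of the libraries. It was 4 higher and 11 lower with upper-quartile scaling, 4 and 10 with median-ratio scaling, and 3 and 10 with quantile normalization, which moved the median of all genes to -0.10, -0.05 and -0.10. The calls over all genes moved as well, from 2547 higher and 811 lower to 1812 and 1804, 1925 and 1543, and 1637 and 1877. Upper-quartile factors were 1.06 to 1.153 in the Bnc1tr/tr libraries and 0.8395 to 0.9628 in the WT libraries. Genes above 0 FPKM numbered 15258 to 15736 in Bnc1tr/tr and 13896 to 14576 in WT. The libraries thus differed by genotype as a whole, and the part of this in single fold changes was not tested.

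**Figure D1:**
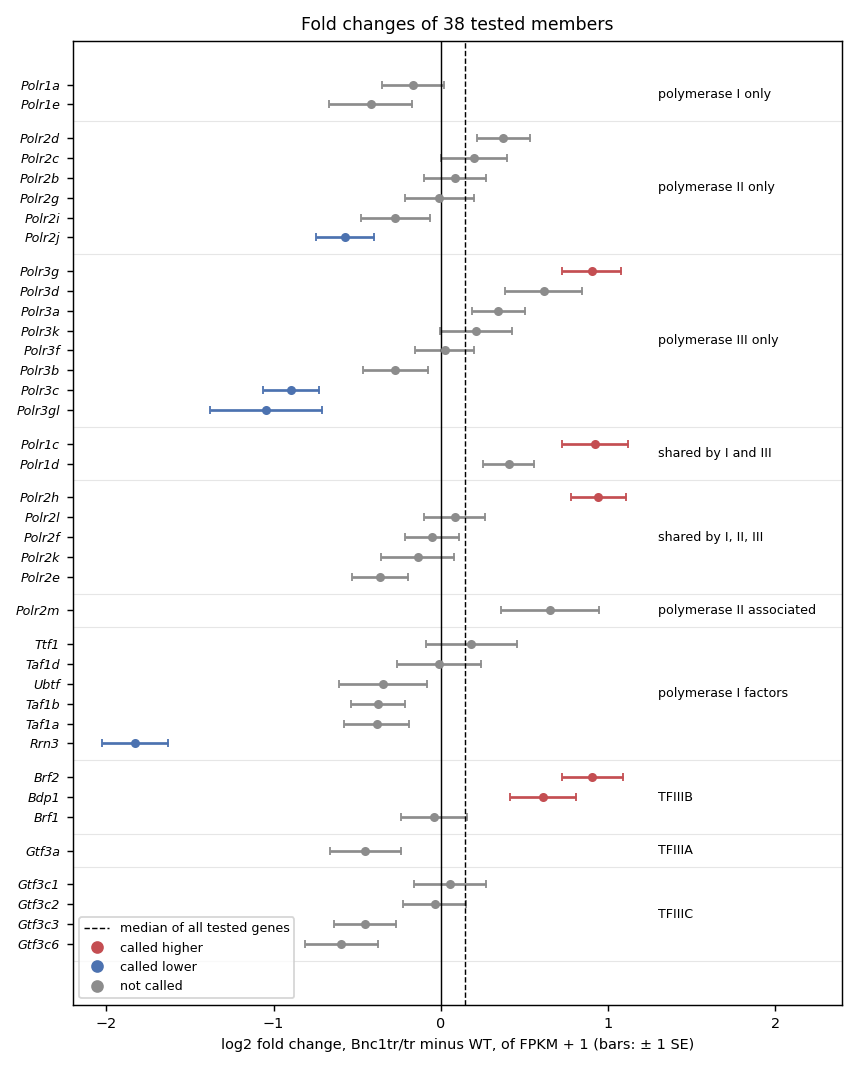
Log2 fold change of FPKM + 1, Bnc1tr/tr minus WT, for 38 of the 39 tested polymerase genes, grouped by complex (points, bars ± 1 SE of the limma fit; solid line at 0, dashed line at 0.15, the median of all tested genes). Only the subunits found only in polymerase III hold calls in both directions, and some complexes hold no call. Rrn3 lies farthest from 0 at -1.83.

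The levels of the genes ranged widely between the enzymes in both genotypes. In WT oocytes the median level was 534 FPKM over the 7 matched subunits found only in polymerase II. It was 5.07 FPKM over the 10 matched for polymerase III only and 2.63 FPKM over the 3 matched for polymerase I only. In Bnc1tr/tr oocytes the same medians were 607, 4.64 and 2.21 FPKM. Left out by the symbol rule were the polymerase I subunits Twistnb, Znrd1 and Cd3eap, listed under older names. Their means were 10.9, 111 and 1.58 FPKM in WT and 21.8, 176 and 0.937 in Bnc1tr/tr. Also left out was Crcp of polymerase III, at 18.3 and 24.4 FPKM. The medians thus do not show whether polymerase I subunits lie below those of polymerase III. The 5 subunits shared by all 3 enzymes had medians of 142 FPKM in WT and 131 in Bnc1tr/tr. The polymerase II medians were the levels of Polr2c, and transcripts of other genes hold 30.8% of its sequence words of 31 bases. They hold 22.3% of those of Polr2i and 27.3% each of those of Polr2k and Polr2l, so these levels are less certain. Of the polymerase II subunits 5 of 7 had a mean above 100 FPKM in each genotype. None of the matched subunits found only in polymerase I or III did, while Znrd1, outside the symbol rule, did. FPKM is per length, and longer members had lower levels, whose part in these differences was not tested. Between mean WT level and the longest annotated transcript of the 45 genes, Pearson's r of the logarithms was -0.67 and Spearman's rho -0.65. These are descriptions across genes, which share libraries and an oligo-dT primed protocol. For the log2 fold change of the 39 tested genes against length the values were -0.04 and -0.01.

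**Figure D2:**
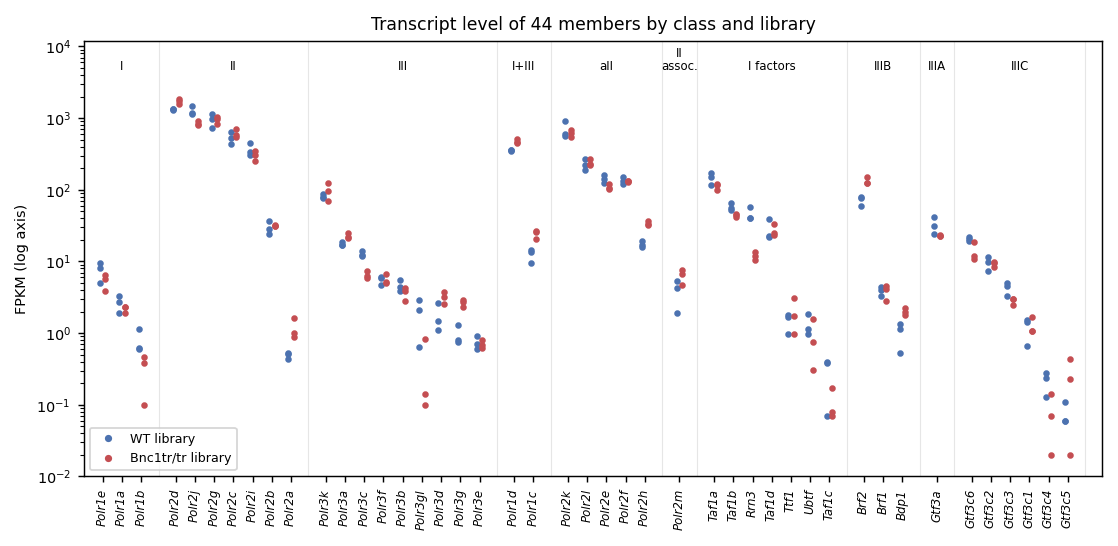
FPKM of 44 of the 45 genes in each library (log axis), grouped by complex and ordered within it by mean level (blue, WT; red, Bnc1tr/tr). Levels span from Gtf3c5 at a WT mean of 0.0767 FPKM to Polr2d at 1327 FPKM, and libraries of one gene lie close together beside that range.

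**Figure D3:**
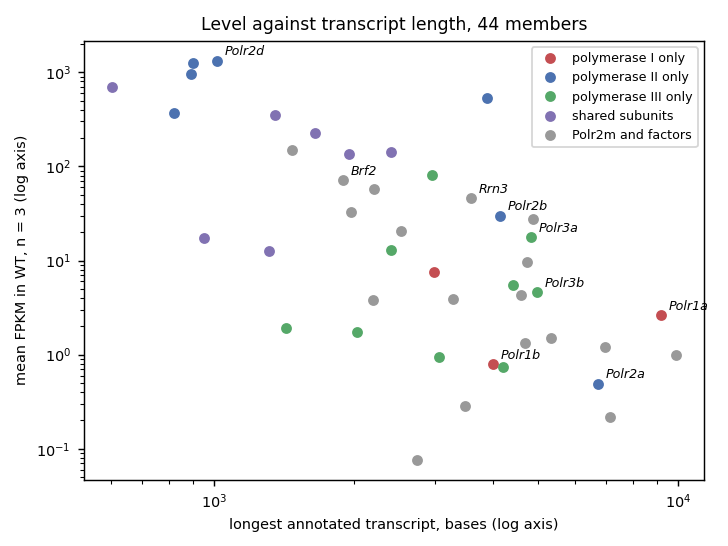
Mean WT level in FPKM (n = 3) against the longest annotated transcript in bases, both on log axes, for 44 of the 45 genes (1 point each), coloured by complex. Long transcripts such as Polr1a and Polr2a lie low and short ones such as Polr2d lie high (Spearman's rho = -0.65 over all 45).

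The catalytic core of polymerase I was expressed at low level in both genotypes. Polr1a, its largest subunit, was at 2.35, 2.35 and 1.92 FPKM in Bnc1tr/tr replicates 1 to 3 and at 2.71, 3.26 and 1.93 FPKM in the WT replicates. The groups overlapped, and the log2 fold change of -0.17 (SE 0.187) had an adjusted p of 0.54. Polr1b, the next largest subunit, was at 0.10, 0.47 and 0.38 FPKM in Bnc1tr/tr and at 1.15, 0.60 and 0.63 in WT. All 3 Bnc1tr/tr libraries lay below the WT libraries, but at about 5 to 30 against 37 to 65 fragments the gene failed the filter, and without a filter its adjusted p was 0.13 (log2 fold change -0.44). Polr1e, which helps the enzyme to initiate, had means of 5.33 ± 1.33 and 7.55 ± 2.25 FPKM (SD, n = 3) and was not called (log2 fold change -0.42, adjusted p = 0.23). With upper-quartile scaling and with quantile normalization Polr1e was called lower. The median log2 fold change of the 2 tested subunits was -0.29. The symbol rule leaves out 3 polymerase I subunits that the files list under older names. Of these Twistnb rose from 10.9 ± 1.55 FPKM in WT to 21.8 ± 1.15 in Bnc1tr/tr (log2 fold change 0.94, adjusted p = 0.0029) and Znrd1 from 111 ± 15.1 to 176 ± 31.5 FPKM (0.65, adjusted p = 0.032). Cd3eap had means of 1.58 and 0.937 FPKM and was not called (-0.45, adjusted p = 0.16). With these 3 the median over 5 tested polymerase I subunits was -0.17.

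Rrn3, the factor that carries polymerase I to the ribosomal RNA promoter, showed the largest difference of the 39 tested genes on the log2(FPKM + 1) scale. It was at 10.6, 12.1 and 13.6 FPKM in Bnc1tr/tr replicates 1 to 3 and at 39.99, 40.6 and 57.3 FPKM in the WT replicates. Every Bnc1tr/tr library lay far below every WT library, and WT replicate 3 was the highest. The means were 12.1 ± 1.46 and 45.9 ± 9.81 FPKM (SD, n = 3), 3.8-fold lower in Bnc1tr/tr (log2 fold change -1.83, SE 0.195, adjusted p = 0.00017), and -1.97 relative to the median of all genes. The call held under all 15 alternative fits, with log2 fold changes from -2.09 to -1.66. The gene lies at chr16:13780699-13814841 (GRCm38), and 0.42% of its 31-base words occur in transcripts of other genes. Its 250 bases before the RefSeq start (GRCm38.p6, chr16:13780449-13780698, plus strand) are shown because its call was lost in no alternative fit, with the E-boxes and the start of an ETS site, which runs past the transcription start, in capitals.
Rrn3: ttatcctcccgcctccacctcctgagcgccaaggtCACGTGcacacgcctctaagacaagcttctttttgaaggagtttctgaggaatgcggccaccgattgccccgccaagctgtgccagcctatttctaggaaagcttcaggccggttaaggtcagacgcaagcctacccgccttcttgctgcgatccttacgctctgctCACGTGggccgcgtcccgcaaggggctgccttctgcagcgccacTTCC

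No other polymerase I factor was called in the main fit. Taf1a and Taf1b were called lower under upper-quartile and median-ratio scaling, Taf1a also without WT replicate 3, and Ubtf under quantile normalization. Ubtf, which opens ribosomal RNA genes for polymerase I, had the lowest mean over the 6 libraries of all tested polymerase genes. It was at 1.58, 0.75 and 0.31 FPKM in Bnc1tr/tr and at 1.87, 1.15 and 0.97 FPKM in WT. The groups overlapped and spread widely, and the gene was not called (log2 fold change -0.35, SE 0.265, adjusted p = 0.35). Ttf1, which ends polymerase I transcription, was at 3.09, 1.71 and 0.97 FPKM in Bnc1tr/tr and at 0.98, 1.68 and 1.81 FPKM in WT. Bnc1tr/tr replicate 1 was highest and Bnc1tr/tr replicate 3 lowest of the 6 libraries, and the log2 fold change of 0.18 (adjusted p = 0.65) became -0.09 without Bnc1tr/tr replicate 1 and -0.33 with quantile normalization. Of the SL1 subunits, Taf1a (112 ± 12.3 against 148 ± 27.8 FPKM, log2 fold change -0.38, adjusted p = 0.16), Taf1b (44.1 ± 2.35 against 57.7 ± 6.70 FPKM, -0.38, adjusted p = 0.11) and Taf1d (27.0 ± 5.12 against 27.9 ± 9.79 FPKM, -0.01, adjusted p = 0.98) were not called. The Taf1b groups did not overlap. Taf1c was below 1 FPKM in every library and was not tested. The median log2 fold change of the 6 tested factors was -0.36, with 1 called lower and none higher. Over all tested genes 7.68% were called lower and 24.1% higher.

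Of the 7 subunits found only in polymerase II, 5 were abundant transcripts of the oocyte, and Polr2b and Polr2a, the largest subunits, were at lower levels. Polr2d, which forms the stalk of the enzyme with Polr2g, had the highest level of the 45 genes and ranked 50 of 17577. It was at 1556, 1874 and 1743 FPKM in Bnc1tr/tr and at 1345, 1293 and 1343 FPKM in WT. The groups did not overlap, but the log2 fold change of 0.37 (SE 0.158) was not called (adjusted p = 0.10). Polr2a, the largest subunit, was in contrast at 1.61, 1.02 and 0.89 FPKM in Bnc1tr/tr and at 0.53, 0.51 and 0.43 in WT. All Bnc1tr/tr libraries were higher, on about 100 to 139 against 51 to 60 fragments. The gene failed the filter, and without a filter it was called higher (log2 fold change 0.53, adjusted p = 0.044), where 15.6% of all genes were. Polr2b, the next largest subunit, was at 30.9, 32.1 and 31.1 FPKM in Bnc1tr/tr and at 36.7, 28.7 and 24.5 FPKM in WT. The groups overlapped (log2 fold change 0.08, adjusted p = 0.77), and the sign turned under 3 other scalings, to between -0.19 and -0.08, and without WT replicate 3, to -0.05. The longest annotated transcript of Polr2a is 6740 bases long, that of Polr2b 4145 and that of Polr2d 1015.

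Of the subunits found only in polymerase II, Polr2j was the only one called in this comparison. This subunit, which pairs with Polr2c in the assembly of the enzyme, was at 792, 830 and 910 FPKM in Bnc1tr/tr and at 1136, 1173 and 1478 FPKM in WT. The groups did not overlap, and WT replicate 3 was the highest library. The means of 844 ± 60.1 and 1262 ± 188 FPKM (SD, n = 3) gave a log2 fold change of -0.57 (SE 0.173, adjusted p = 0.033). The call was lost in 7 of 15 alternative fits, among them those without Bnc1tr/tr replicate 1, 2 or 3 or WT replicate 2 or 3, where adjusted p ranged up to 0.099. Of its 31-base words 13.2% also occur in Lrwd1, which overlaps it on the opposite strand, and a Smart-seq2 library does not record strand. Polr2c (607 ± 78.5 against 534 ± 103 FPKM), Polr2g (933 ± 107 against 952 ± 212 FPKM) and Polr2i (301 ± 45.5 against 366 ± 79.0 FPKM) were not called, with log2 fold changes of 0.20, -0.01 and -0.27. The median over the 6 tested subunits was 0.04. Polr2m, which restrains polymerase II and is not a core subunit, had means of 6.34 ± 1.42 and 3.84 ± 1.72 FPKM and was not called (0.65, adjusted p = 0.12).

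Among the shared subunits, 1 of the pair common to polymerases I and III and 1 of the 5 common to all enzymes were called higher. Over all tested genes 24.1% were called higher. Polr1c, part of the assembly platform of polymerases I and III, was at 25.4, 26.9 and 20.8 FPKM in Bnc1tr/tr and at 13.4, 14.4 and 9.64 FPKM in WT. All 3 Bnc1tr/tr libraries exceeded all WT libraries, with means of 24.4 ± 3.20 and 12.5 ± 2.53 FPKM, 1.95-fold higher (log2 fold change 0.92, SE 0.199, adjusted p = 0.0077). Its partner Polr1d was at 472 ± 36.1 against 355 ± 6.61 FPKM, higher without overlap but not called (log2 fold change 0.41, adjusted p = 0.076). Polr2h, a small subunit of all 3 enzymes, was at 33.6, 37.2 and 32.2 FPKM in Bnc1tr/tr and at 16.8, 15.9 and 19.6 FPKM in WT. Again the groups did not overlap, and the means of 34.3 ± 2.57 and 17.4 ± 1.91 FPKM differed 1.97-fold (log2 fold change 0.94, SE 0.164, adjusted p = 0.0025). The calls of Polr1c and Polr2h held under all 15 alternative fits. Other genes' transcripts hold 18.0% of the 31-base words of Polr2h, mainly Gm7511 with 14.6%, and none of those of Polr1c. The other 4 common subunits were not called, with log2 fold changes of -0.36 in Polr2e (adjusted p = 0.13), -0.14 in Polr2k, -0.05 in Polr2f and 0.08 in Polr2l. Polr2e was lower without overlap, and it was called lower under upper-quartile and median-ratio scaling. Polr1c lies at chr17:46243920-46248045 and Polr2h at chr16:20717826-20722272 (GRCm38). The bases before the start of Polr1c (chr17:46248046-46248295, minus strand) are shown for comparison with Rrn3, with its GC box and its ETS site in capitals.
Polr1c: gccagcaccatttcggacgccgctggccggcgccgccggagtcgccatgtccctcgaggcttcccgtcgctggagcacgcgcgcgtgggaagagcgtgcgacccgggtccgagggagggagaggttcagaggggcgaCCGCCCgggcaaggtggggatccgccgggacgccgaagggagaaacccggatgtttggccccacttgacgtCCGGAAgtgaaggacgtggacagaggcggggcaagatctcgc

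**Figure D4:**
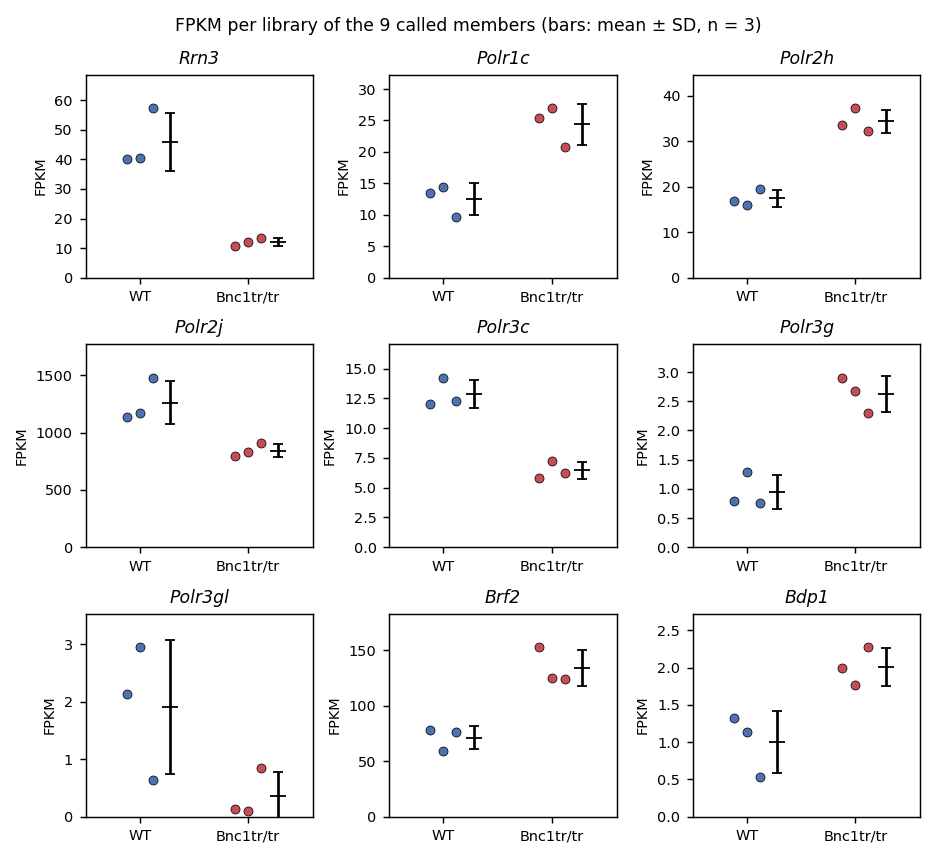
FPKM in each library of the 9 called polymerase genes (points; horizontal marks and bars, mean ± SD, n = 3; each axis starts at 0). The Bnc1tr/tr and WT libraries do not overlap in 8 of the panels, and in Polr3gl Bnc1tr/tr replicate 3 lies above WT replicate 3.

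Subunits found only in polymerase III were called in both directions, with Polr3g higher and Polr3c and Polr3gl lower. Polr3a, the largest subunit, was at 24.9, 22.2 and 21.0 FPKM in Bnc1tr/tr and at 16.9, 17.2 and 18.8 FPKM in WT. The groups did not overlap, but the log2 fold change of 0.34 (SE 0.158) was not called (adjusted p = 0.13). Polr3b, the next largest subunit, was at 3.84, 4.22 and 2.84 FPKM in Bnc1tr/tr and at 5.59, 3.83 and 4.37 in WT, with overlap between the groups (log2 fold change -0.27, adjusted p = 0.32). Polr3c, part of the subcomplex through which polymerase III joins its initiation factors, was at 5.85, 7.27 and 6.22 FPKM in Bnc1tr/tr and at 12.1, 14.2 and 12.3 FPKM in WT. Each Bnc1tr/tr library was lower than each WT library. The means of 6.45 ± 0.737 and 12.8 ± 1.19 FPKM differed 1.99-fold (log2 fold change -0.90, SE 0.165, adjusted p = 0.0034), and the call held under all 15 alternative fits (-1.21 to -0.83). The gene lies at chr3:96711520-96727498 (GRCm38).

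The paralogues Polr3g and Polr3gl encode alternative forms of the subunit that binds Polr3c in that subcomplex. Polr3g is known as the form of early embryos and pluripotent cells and Polr3gl as the form of most other cells. Polr3g was at 2.90, 2.68 and 2.30 FPKM in Bnc1tr/tr and at 0.80, 1.29 and 0.76 FPKM in WT. The groups did not overlap, and the means of 2.63 ± 0.304 and 0.950 ± 0.295 FPKM (SD, n = 3) differed 2.76-fold (log2 fold change 0.90, SE 0.176, adjusted p = 0.0046). Polr3gl was at 0.14, 0.10 and 0.84 FPKM in Bnc1tr/tr and at 2.13, 2.94 and 0.64 FPKM in WT. Bnc1tr/tr replicates 1 and 2 were lowest, at about 2 fragments each, which is under the floor of 3, while WT replicate 3 fell below Bnc1tr/tr replicate 3. The log2 fold change was -1.04 (SE 0.335, adjusted p = 0.041), on means of 0.36 ± 0.416 and 1.90 ± 1.17 FPKM that differed 5.29-fold. The call was lost with a pseudocount of 0.1, where the log2 fold change was -2.27 (adjusted p = 0.054), with no filter (adjusted p = 0.11) and without Bnc1tr/tr replicate 1 or 2 (adjusted p = 0.13 each), and without WT replicate 1 or 2 the gene failed the filter. Polr3g held in 13 of 14 alternative fits and was lost with quantile normalization (log2 fold change 0.42, adjusted p = 0.069).

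The paralogues are also given as a sum and a share. The sum of both was 3.04, 2.78 and 3.14 FPKM in Bnc1tr/tr and 2.93, 4.23 and 1.40 FPKM in WT, so the WT libraries lay on both sides of the Bnc1tr/tr libraries. Polr3g made up 95.4%, 96.4% and 73.2% of the sum in Bnc1tr/tr and 27.3%, 30.5% and 54.3% in WT. The shares did not overlap between the groups, and they are given as a description with no test. Replicate 3 was nearest to the other group in both genotypes. The genes lie at chr13:81673837-81711013 (Polr3g) and chr3:96577872-96594181 (Polr3gl), and other genes' transcripts hold 0.282% and 8.07% of their 31-base words. The sequences before their starts are shown because the paralogues were called in opposite directions (Polr3g, chr13:81711014-81711263; Polr3gl, chr3:96594182-96594431; both minus strand). Capitals mark GC boxes and an ETS site in Polr3g, where the last GC box runs past the start, and an E-box, an ETS site and CCAAT boxes in Polr3gl.
Polr3g: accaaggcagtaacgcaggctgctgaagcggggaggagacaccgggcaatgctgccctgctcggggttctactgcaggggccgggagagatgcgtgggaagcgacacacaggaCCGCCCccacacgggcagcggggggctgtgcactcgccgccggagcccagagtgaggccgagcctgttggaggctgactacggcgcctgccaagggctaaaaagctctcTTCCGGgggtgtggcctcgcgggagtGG
Polr3gl: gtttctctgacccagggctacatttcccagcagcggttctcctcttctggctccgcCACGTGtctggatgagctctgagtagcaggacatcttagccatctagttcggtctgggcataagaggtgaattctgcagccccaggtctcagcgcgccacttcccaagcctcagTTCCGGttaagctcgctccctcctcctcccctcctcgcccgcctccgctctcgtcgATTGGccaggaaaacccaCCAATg

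**Figure D5:**
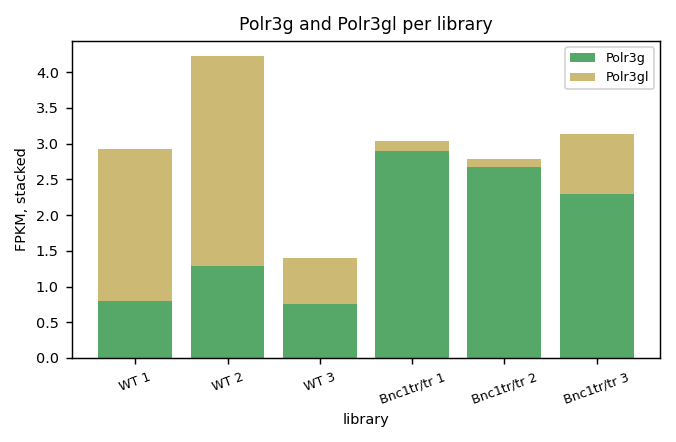
Stacked FPKM of Polr3g (green) and Polr3gl (yellow) in each of the 6 libraries (1 bar per library, axis from 0). The Polr3g part makes up 73.2% to 96.4% of the bars of Bnc1tr/tr and 27.3% to 54.3% of those of WT.

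Polr3d, Polr3f and Polr3k were not called. Polr3d, which Polr3e partners, had means of 3.14 ± 0.591 FPKM in Bnc1tr/tr and 1.76 ± 0.797 in WT (log2 fold change 0.62, adjusted p = 0.071). Polr3k, a small subunit active in termination, was the most abundant at 96.5 ± 26.6 and 81.2 ± 5.02 FPKM (0.21, adjusted p = 0.50). Polr3f overlapped between the groups (0.02, adjusted p = 0.94), and Polr3e was below 1 FPKM in all libraries and was not tested. The median over the 9 tested subunits was 0.02. A further polymerase III subunit outside the symbol rule, Crcp, was not called either (0.43, adjusted p = 0.16).

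In TFIIIB, which recruits polymerase III, 2 of 3 subunits were called higher, against 24.1% of all genes, and 1 of these calls, that of Bdp1, was lost in most alternative fits. Brf2, used at genes with an upstream promoter such as U6 small nuclear RNA, was at 153, 126 and 124 FPKM in Bnc1tr/tr and at 78.1, 59.5 and 76.0 FPKM in WT. The groups did not overlap, and the means of 134 ± 16.2 and 71.2 ± 10.2 FPKM differed 1.88-fold (log2 fold change 0.91, SE 0.182, adjusted p = 0.0053), a call that held under all 15 alternative fits. Bdp1, common to both forms of TFIIIB, was at 1.99, 1.77 and 2.27 FPKM in Bnc1tr/tr and at 1.33, 1.13 and 0.53 FPKM in WT. These groups did not overlap either, but the call (log2 fold change 0.61, SE 0.198, adjusted p = 0.043) was lost in 12 of 14 alternative fits, among them each fit with 1 library left out except that without WT replicate 1, with adjusted p up to 0.62. Brf1, the counterpart of Brf2 at transfer RNA and 5S genes, was at 3.82 ± 0.898 and 3.92 ± 0.577 FPKM (-0.04, adjusted p = 0.90). Brf2 exceeded Brf1 in level in both genotypes.

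TFIIIA and TFIIIC held no called gene. Gtf3a, which is TFIIIA and serves 5S genes, was at 22.9 ± 0.677 FPKM in Bnc1tr/tr and 32.4 ± 8.89 in WT, lower without overlap (log2 fold change -0.45, adjusted p = 0.14). Transcripts of other genes hold 55.5% of its 31-base words, mainly those of the overlapping gene Mtif3 on the opposite strand, so its level is uncertain. Of the TFIIIC subunits, which bind the internal promoters of transfer RNA genes, Gtf3c6 (13.8 ± 4.35 against 20.8 ± 1.27 FPKM, -0.59, adjusted p = 0.066) and Gtf3c3 (2.82 ± 0.332 against 4.27 ± 0.882 FPKM, -0.45, adjusted p = 0.093) were lower without overlap but were not called. Gtf3c1 (0.06, adjusted p = 0.87) and Gtf3c2 (-0.04, adjusted p = 0.91) overlapped, while Gtf3c4 and Gtf3c5 were below 1 FPKM throughout. Gtf3c2 shares 37.9% of its 31-base words with Gm29609, which overlaps it on the same strand, so its level is also uncertain. The median over the 4 tested TFIIIC genes was -0.25. Gtf3a, Gtf3c3 and Gtf3c6 were called lower under upper-quartile, median-ratio and quantile scaling. Gtf3a was also called lower without WT replicate 3, and Gtf3c6 without Bnc1tr/tr replicate 2 and under a replicate block.

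Compared by enzyme, none of 2 tested polymerase I subunits, 1 of 6 polymerase II subunits and 3 of 9 polymerase III subunits were called, against 31.8% of all genes, and the median log2 fold changes were -0.29, 0.04 and 0.02 against 0.15. The polymerase I count depends on the symbols, since 2 of 5 were called once Twistnb, Znrd1 and Cd3eap were included. With upper-quartile scaling the polymerase II and III medians were negative, at -0.24 and -0.21. A difference between the enzymes was not tested. Lists of genes that work with the polymerases were examined too. Of 19 tested general factors of polymerase II, 3 rose and 1 fell, with a median of 0.15. Gtf2e1, a subunit of TFIIE, rose from 3.4 ± 0.295 to 12.9 ± 1.88 FPKM (1.65, adjusted p = 0.00014) and Gtf2h2, a subunit of TFIIH, fell from 127 ± 9.76 to 77.8 ± 8.92 FPKM (-0.70, adjusted p = 0.012). Gtf2b, the factor TFIIB, rose to 854 ± 25.6 from 475 ± 57.7 FPKM (0.85, adjusted p = 0.0045). Of 7 tested accessory genes of polymerase III only Snapc2 rose (1.01, adjusted p = 0.025), and of 16 tested genes of ribosomal RNA processing Dkc1 rose (0.79, adjusted p = 0.0057) and Utp4 fell (-0.77, adjusted p = 0.023), with medians of -0.21 and 0.18. The processing genes Fbl and Ncl were not called (0.08, adjusted p = 0.82, and 0.17, adjusted p = 0.45).

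Promoter sequences, which the choice by symbol did not use, were also examined. RefSeq windows of 300 bases, from 250 before to 50 after the start, were matched for 37 of the 45 genes and searched on both strands for 6 motifs. Windows on chromosome 18, where Polr2d lies, were not used for the 45 genes. The shares over all promoters left out no chromosome. The ETS site CCGGAA was present in 22 of 37 (59.5%), against 15.2% of all 27025 promoters and 29.0% of the 8546 promoters of tested genes. The E-box CACGTG was present in 6 of 37 (16.2%, against 7.24% and 10.1%) and the GC box GGGCGG in 21 of 37 (56.8%, against 35.9% and 60.6%). CCAAT occurred in 32.4% (37.9% and 40.3%), the TATA box TATAAA in 8.11% (14.2% and 7.92%) and the palindromic NRF1 site in none (0.977% and 2.12%). The letters of no motif are part of another. Of the called genes with a window, all 4 lower and 3 of 4 higher held the ETS site, and the E-box occurred in 3 of the 4 lower (Rrn3, Polr3c and Polr3gl) and in 1 of the 4 higher (Polr2h). These matches are descriptions of letters in a window, with no test.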

How the data were processed

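Single germinal vesicle oocytes were profiled by modified Smart-seq2 with a transposase-based library kit, in 3 Bnc1tr/tr and 3 WT libraries grouped by the genotype in the labels. The authors deposited FPKM in 1 table per library, each listing 17577 genes by NCBI Gene ID and symbol. The submitters' processing notes name HISAT2 2.0.4, Bowtie2 2.2.5, RSEM 1.2.12 and the build GRCm38.p6, with no role or order given. FPKM depends on all other transcripts of a library, and cDNA was amplified with no molecular identifiers, so floors cover counting error only.

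The polymerase genes and all gene lists were chosen with earlier results of these data known. Log2(FPKM + 1) of genes that averaged 1 FPKM or more was fitted with limma 3.58.1 in R 4.3.3, 10560 genes in all, with Benjamini-Hochberg adjustment over all of them. Fold changes are on this scale, which understates changes of low genes. Thresholds (adjusted p under 0.05, absolute log2 fold change over 0.5) follow the study, which names no tool. The alternatives, 15 of them fits, were 4 other scalings, a pseudocount of 0.1, no filter or a minimum of 5 FPKM, trend and robust variances, a replicate block, other fold-change thresholds and leaving out each library. In simulated data over 10560 genes, 55 of 100 genes were recovered at an absolute log2 fold change of 1 and 93 of 100 at 2, with 12 false calls. Far fewer genes were changed there than the 31.8% called here, and none of low mean level. The simulated recovery and false calls thus do not carry over to these data or to low genes.

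Values in every sample are given for every called gene, the largest subunits, Polr3g and Polr3gl, Ubtf, Rrn3 and Ttf1, and the genes of highest and lowest level. The spacing of low values gave the depth estimate, and approximate fragments from depth and the longest transcript. Gene positions came from RefSeq, matched by NCBI Gene ID, and promoters from RefSeq (GRCm38.p6). Transcript lengths, gene overlaps and shared 31-base words came from the GENCODE annotation of GRCm38. The values of 1 gene are not reported here, in text or plots, but it stays in all counts and medians. Figures were drawn with matplotlib 3.10.9.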

Additional observations from a re-analysis of the deposited data

How the results depend on the processing

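Of 232 alternative values of 18 polymerase genes, 199 were counted as unchanged in direction and call, 24 lost their call, 3 gained a call and 6 changed sign. The 18 are the genes with values given in every sample, among them all called genes, so gained calls of other genes are not counted. Outside the 18, Polr1e, Polr2e, Taf1a, Taf1b, Gtf3a, Gtf3c3 and Gtf3c6 were called lower, and Polr3d higher, in some alternative fits. Polr1b and Polr2a, which failed the filter, were counted by fold change alone, which removing the filter cannot move. Polr2a was counted as unchanged there although limma without the filter called it higher (adjusted p = 0.044). The count of genes higher was 3 with quantile normalization, 3 with a minimum mean of 5 FPKM, 0 above an absolute log2 fold change of 1, and 4 to 5 with 1 library left out. The count lower was 11 with upper-quartile scaling, 10 with median-ratio scaling, 10 with quantile normalization, 2 with a pseudocount of 0.1 (Polr3c and Rrn3), 2 above an absolute log2 fold change of 1 (Polr3gl and Rrn3), and 2 to 5 with 1 library left out, where it was 2 without Bnc1tr/tr replicate 1 and without WT replicate 2 (Polr3c and Rrn3). The median of the polymerase I subunits was -0.68 with quantile normalization and -0.48 to -0.17 with 1 library left out. That of polymerase II was -0.24 with upper-quartile and -0.18 with median-ratio scaling, and -0.01 to 0.09 with 1 library left out. That of polymerase III was -0.21, -0.17 and -0.34 with upper-quartile, median-ratio and quantile scaling, and -0.09 to 0.17 with 1 library left out, where it was 0.17 without WT replicate 2. The sign turned for Polr2b with upper-quartile (-0.19), median-ratio (-0.13) and quantile scaling (-0.075), with values of -0.049 (without WT replicate 3) to 0.234 when 1 library was left out, and for Ttf1 with quantile scaling (-0.33), with values of -0.091 (without Bnc1tr/tr replicate 1) to 0.436 when 1 library was left out. Quantile scaling also brought calls of Polr1a (-0.61), Polr3b (-0.66) and Ubtf (-0.87). The cause was not tested.

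Same-numbered libraries correlated at 0.278, -0.034 and 0.124 in their deviations from the group means, so the numbers were not taken as pairs. Under a replicate block 6 genes were higher, adding Polr3d, and 5 lower, adding Gtf3c6. The block cannot move a fitted difference in this balanced design. At the estimated depth Polr3gl rested on about 2 fragments in 2 libraries and Polr1b on about 5 in 1.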
